A study of Mus musculus with 119 samples.

Results

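Il10 is 1 of the 18098 genes in a table of RNA-seq values from mouse bone marrow-derived macrophages (BMDMs), and its row was taken by gene symbol from every library. Il10 encodes the anti-inflammatory cytokine IL-10 and lies on the forward strand of chr1:131019845-131024970 (GRCm38, the assembly also called mm10), in 5 exons. The libraries form 25 groups of genotype, inhibitor and time. Cells were left without LPS or were given 100 ng/ml LPS, a ligand of TLR4, for 0.5, 1 or 2 h. All genotypes were on the C57BL/6 background.

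Macrophages make IL-10 after TLR4 stimulation, and the cytokine then acts back on the same cells through its receptor, JAK1 and STAT3 to limit the production of inflammatory mediators. In TLR4 signalling, the kinase TPL-2 (gene Map3k8) is held by NF-κB1 p105, is released when p105 is phosphorylated by the IKK complex, and then switches on MKK1/2 and ERK1/2. ERK1/2 act on the ternary complex factors ELK1 and ELK4, on RSK kinases and on FOS, and each of these has been discussed as a route from TLR4 to cytokine genes.

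The pathway blocks were aimed at different points of this cascade. WT cells gave 22 libraries (6 each from unstimulated cells, 0.5 h and 1 h, and 4 from 2 h). Map3k8[D270A] cells, whose TPL-2 lacks kinase activity, gave 24 (6 at each of the 4 times). Elk1-/-Elk4-/- cells, which lack both ternary complex factors, gave 16 (4 at each time). Nfkb1[SS/AA] cells, whose p105 cannot be phosphorylated by IKK at the sites that release TPL-2, gave 18 (6 each without LPS, at 0.5 h and at 1 h). WT cells given 0.1 µM of the MKK1/2 inhibitor PD0325901 gave 21 libraries, of which 3 each came from 10, 40 and 70 min of inhibitor without LPS and 6 each from 0.5 and 1 h of LPS. WT cells given 2 µM of the RSK inhibitor RSKi47 gave 15 (3 from 0.5 h and 4 from each of the other times), and DMSO for 10 min without LPS gave 3. Nfkb1[SS/AA] and PD0325901 were not analysed at 2 h here. According to the methods, inhibitors were added 10 min before LPS.

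Only Map3k8[D270A] cells shared an experiment with the WT libraries by their labels. For the other blocks, the block and the experiment cannot be told apart, and no LPS-treated vehicle control was analysed here. The labels name no animals, so p-values measure the spread between these libraries, which may in part be technical. Values are on a log2 scale as deposited, with no counts, and library depth is therefore unknown. No 2 libraries were identical, and library medians ran from 7.01 to 7.22. A call required both a difference of 1 or more on the log2 scale and an adjusted p under 0.05, over 11971 genes tested. All adjusted p-values of genes are from limma with Benjamini-Hochberg adjustment.

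The genotype could be read only for the Elk1 and Elk4 genes, because the other alleles are point mutations. Without LPS, the mean Elk1 level ± SD was 9.14 ± 0.05 over 6 WT libraries and 6.36 ± 0.18 over 4 Elk1-/-Elk4-/- libraries, and that of Elk4 was 7.72 ± 0.09 and 5.71 ± 0.17. All 6 macrophage markers were high in every group, with a summed level between 16.85 and 17.36 in every library. The libraries that stood furthest from their group were RSKi47 replicate 4, with 38 genes (without LPS), 40 genes (1 h) and 95 genes (2 h) more than 1 beyond the rest of the group, Nfkb1[SS/AA] replicate 2 at 1 h with 29, WT replicate 7 at 2 h with 21, and RSKi47 replicate 1 at 1 h with 18.

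In WT cells, Il10 rose within 0.5 h of LPS and was highest at 1 h. Without LPS, the 6 WT libraries held Il10 between 6.08 and 6.72 (median 6.32). At 0.5 h they held it between 8.82 and 9.49 (median 8.90), and at 1 h between 9.46 and 10.18 (median 9.76). At 2 h the 4 libraries stood at 9.22, 9.38, 9.69 and 9.47. Every library with LPS lay above every library without it, and the 0.5 and 1 h groups overlapped at their edges. The rise was 2.71 ± 0.20 (SE) at 0.5 h, 3.43 ± 0.20 at 1 h and 3.09 ± 0.22 at 2 h, with adjusted p of 1.81e-22, 2.26e-30 and 2.06e-24. Of all genes tested in WT cells, 0.618% were called at 0.5 h, 4.11% at 1 h and 11.0% at 2 h.

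**Figure D1:**
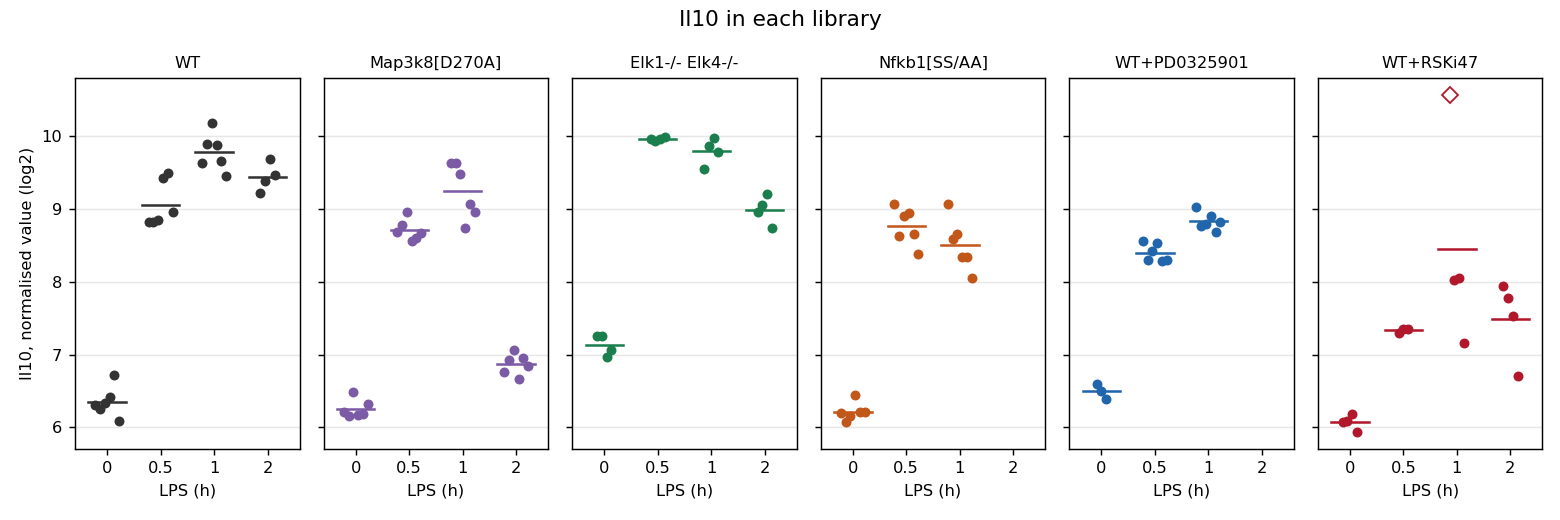
Il10 level (log2, as deposited) in each library against LPS time (h), 1 panel per arm, with a point for each library and a bar at each group mean; the 0 h points of PD0325901 are its 10 min samples and the open diamond is RSKi47 replicate 1 at 1 h. WT cells peak at 1 h near 9.78, Elk1-/-Elk4-/- cells at 0.5 h near 9.97, and Map3k8[D270A] cells are at 6.87 at 2 h.

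Ordered by group mean, Il10 was highest in Elk1-/-Elk4-/- cells at 0.5 h (9.97 ± 0.02), in the same cells at 1 h (9.79 ± 0.18) and in WT cells at 1 h (9.78 ± 0.25, SD throughout). Below these stood WT at 2 h (9.44 ± 0.20), Map3k8[D270A] at 1 h (9.25 ± 0.38), WT at 0.5 h (9.06 ± 0.31), Elk1-/-Elk4-/- at 2 h (8.99 ± 0.20) and PD0325901 at 1 h (8.83 ± 0.12). Then came Nfkb1[SS/AA] at 0.5 h (8.76 ± 0.25), Map3k8[D270A] at 0.5 h (8.71 ± 0.14), Nfkb1[SS/AA] at 1 h (8.51 ± 0.35), RSKi47 at 1 h (8.45 ± 1.47) and PD0325901 at 0.5 h (8.40 ± 0.12). A gap of 0.91 separated these from RSKi47 at 2 h (7.49 ± 0.55) and at 0.5 h (7.34 ± 0.03). Elk1-/-Elk4-/- cells without LPS (7.13 ± 0.14) and Map3k8[D270A] cells at 2 h (6.87 ± 0.14) followed. The remaining groups, all without LPS, lay between 6.07 and 6.49. Neighbours in this order differed by more than the larger of their SDs at 5 steps only. These were from WT at 1 h to WT at 2 h, from PD0325901 at 0.5 h to RSKi47 at 2 h, from RSKi47 at 0.5 h to Elk1-/-Elk4-/- without LPS, from there to Map3k8[D270A] at 2 h, and from there to PD0325901 at 10 min. All other neighbours differed by less than their spread.

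Without LPS, Il10 was higher in Elk1-/-Elk4-/- cells than in WT cells. The 4 libraries stood at 7.25, 7.25, 6.96 and 7.06, all above the highest WT library. The difference was 0.78 ± 0.22 (SE, adjusted p = 1.64e-03), below the size required for a call. In that comparison 53.6% of all genes passed the adjusted p alone. In Map3k8[D270A] cells the difference from WT was -0.10 (adjusted p = 0.907), in Nfkb1[SS/AA] cells -0.14 (0.639) and with RSKi47 -0.28 (0.287). The intervals of these 3 differences (95%) reached from -0.71 to 0.29 together.

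The inhibitor and its solvent alone left Il10 near the unstimulated WT level. DMSO for 10 min gave 6.29, 6.30 and 6.38. PD0325901 gave 6.59, 6.50 and 6.39 at 10 min, 6.17, 6.19 and 6.06 at 40 min, and 6.30, 6.12 and 6.25 at 70 min. All but 1 of these libraries lay inside the range of unstimulated WT cells, and that one, at 6.06, lay just below it. PD0325901 at 10 min differed from DMSO by 0.17 (95% interval -0.37 to 0.72) and from WT by 0.14 (-0.33 to 0.62). The differences at 40 and 70 min from 10 min were -0.36 and -0.27, with adjusted p of 0.617 and 0.706, although neither group overlapped the 10 min group.

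In Elk1-/-Elk4-/- cells, Il10 after LPS was higher than in WT cells at 0.5 h and inside the WT range at 1 h. At 2 h it lay below every WT library, but the difference did not pass the test in the fit of all libraries. At 0.5 h the libraries stood at 9.97, 9.94, 9.97 and 9.99, above every WT library of that time. The difference was 0.91 ± 0.22 (SE, adjusted p = 3.79e-04), short of a call. With WT replicates 4 to 6 alone as control it was 1.14 (adjusted p = 2.10e-04), a call, and with replicates 7 to 9 alone 0.67. Of all genes 1.16% were called there and 46.4% passed the adjusted p alone. At 1 h the libraries stood at 9.55, 9.86, 9.98 and 9.78, inside the WT range. The difference was 0.01 ± 0.22 (adjusted p = 0.968, 95% interval -0.42 to 0.44), while 1.51% of genes were called. At 2 h they stood at 8.96, 9.06, 9.20 and 8.73, all below the lowest WT library. The difference was -0.45 ± 0.24 (adjusted p = 0.105), the 702nd lowest, while 2.09% of genes were called. In that comparison 6283 of 11971 genes passed the adjusted p alone. The share of genes without overlap was not computed.

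The Elk1-/-Elk4-/- libraries also carried more RNA of neutrophil-associated genes. Of the 5 neutrophil markers, S100a8 and S100a9, which encode the subunits of calprotectin, were called higher at all 4 times, for example at 1 h (2.86 and 3.64, where 1.51% of all genes were called) and without LPS (2.97 and 3.78, 1.23%). Ly6g, the gene of a defining neutrophil surface protein, stayed between -0.24 and 0.60 in all libraries, and Elane and Mpo, genes of granule enzymes, did not pass the filter on low values. S100a8 and S100a9 were also called higher with PD0325901 at both LPS times (0.409% and 0.735% of all genes called) and with RSKi47 at 2 h (2.00%), and S100a9 alone with DMSO (1.35, 0.384%) and PD0325901 at 10 min (1.26, 0.459%). The summed level of the list was 9.26 to 10.26 in Elk1-/-Elk4-/- libraries, 5.62 to 7.18 in WT libraries and 6.59 to 8.09 with PD0325901. Of the 4 mast cell markers, Kit was called higher in Elk1-/-Elk4-/- cells (1.04 at 1 h, where 1.51% of all genes were called), and Cpa3, Fcer1a and Ms4a2 were below 0 in every library. Of the 4 T cell markers only Lck was tested and called, lower with RSKi47 at 2 h (-1.12, where 2.00% of all genes were called), and of the 4 B cell markers only Cd79b was tested. Cd79b was not called but passed the adjusted p in Elk1-/-Elk4-/- cells, where it was higher by 0.69 without LPS and by 0.78, 0.67 and 0.66 at 0.5, 1 and 2 h, and with RSKi47, where it differed by -0.81, -0.57, -0.65 and -0.70. Of 11971 genes, 5554 to 6609 passed the adjusted p in these Elk1-/-Elk4-/- comparisons and 5775 to 6350 in those with RSKi47. Passing it therefore does not set Cd79b apart from other genes. Cd79a and Ms4a1 did not exceed 2.74 in any library. The part of these cells' RNA in the Il10 values was not tested. In bulk libraries, fewer cells that make Il10 and less Il10 RNA per cell cannot be told apart.

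Within Elk1-/-Elk4-/- cells, Il10 rose by 2.83 ± 0.24 (SE) at 0.5 h, 2.66 ± 0.24 at 1 h and 1.86 ± 0.24 at 2 h, with adjusted p of 2.31e-18, 1.20e-17 and 3.32e-11. Of all genes, 0.752%, 3.49% and 10.2% were called at these times. No library with LPS overlapped those without it. The response differed from that of WT cells by 0.12 ± 0.31 at 0.5 h (adjusted p = 0.999, 0.0334% of genes called) and by -0.77 ± 0.31 at 1 h (adjusted p = 0.333, 0.167% called). At 2 h the response was smaller than in WT cells by 1.23 (difference -1.23 ± 0.32, adjusted p = 3.21e-03, 0.635% called). That last difference joins the higher level without LPS (0.78) and the lower level at 2 h (-0.45), neither of which was called on its own. With only WT replicates 7 to 9 as control, of which 1 was from 2 h, it was -1.20 with an adjusted p of 0.116. From 0.5 to 1 h, Il10 changed by -0.17 in these cells (adjusted p = 0.671) and by 0.72 in WT cells (1.33e-03). The WT change was 1.07 in replicates 4 to 6 (1.05e-03) and 0.37 in replicates 7 to 9 (0.430). The contrast between the cells was -0.89 ± 0.31 with an adjusted p of 0.132, or -1.24 (0.0291, a call) and -0.54 against these replicates of WT.

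In Nfkb1[SS/AA] cells, Il10 reached the WT range at 0.5 h and then fell behind at 1 h. The 6 libraries without LPS ran from 6.07 to 6.45 (median 6.20), overlapping WT. At 0.5 h they ran from 8.39 to 9.07 (median 8.78), again overlapping WT, and the difference was -0.30 ± 0.20 (SE, adjusted p = 0.250), where 0.551% of genes were called. At 1 h they ran from 8.06 to 9.07 (median 8.46). All 6 lay below the lowest WT library of that time, and the difference was -1.28 ± 0.20 (adjusted p = 4.86e-08). This was a call, made by 1.17% of genes, and Il10 was the 43rd lowest of 11971. Without replicate 2 the difference was -1.29 (adjusted p = 2.17e-07).

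The LPS response of Nfkb1[SS/AA] cells was 2.55 ± 0.20 (SE) at 0.5 h and 2.29 ± 0.20 at 1 h, with adjusted p of 6.09e-21 and 4.36e-19, at shares of 0.735% and 3.58% of genes called. It differed from the WT response by -0.16 ± 0.28 at 0.5 h (adjusted p = 1.00, 0.0418% called) and by -1.14 ± 0.28 at 1 h (adjusted p = 2.81e-03, 0.543% called). The difference at 1 h was thus called as a change in the response and not only in the level. With WT replicates 7 to 9 alone as control it was -0.96 with an adjusted p of 0.167. From 0.5 to 1 h, Il10 changed by -0.26 in Nfkb1[SS/AA] cells (adjusted p = 0.306), against 0.72 in WT cells. That contrast was -0.98 ± 0.28 with an adjusted p of 0.0179, short of a call. With WT replicates 4 to 6 alone it was -1.33 (5.06e-03, a call) and with replicates 7 to 9 alone -0.63 (0.804). Without Nfkb1[SS/AA] replicate 1 or 2 or WT replicate 7, 8 or 9 it reached the size of a call (-1.09 to -1.02), and without Nfkb1[SS/AA] replicate 4 or WT replicate 5 or 6 the adjusted p was 0.0569, 0.0709 and 0.0913.

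With PD0325901, Il10 was lower than in WT cells at both LPS times, by less than the size of a call. At 0.5 h the 6 libraries ran from 8.29 to 8.57 (median 8.37), all below the lowest WT library. The difference was -0.66 ± 0.20 (SE, adjusted p = 6.65e-03), with 0.409% of genes called and 29.4% past the adjusted p alone. At 1 h they ran from 8.68 to 9.03 (median 8.81), also without overlap. The difference was -0.95 ± 0.20 (adjusted p = 5.58e-05), with 0.735% of genes called and 35.7% past the adjusted p alone. It was the 57th lowest of 11971 differences, and it reached the size of a call without WT replicate 9 (-1.01) and with WT replicates 4 to 6 alone (-1.07). In the labels the PD0325901 replicates are numbered 1 to 6, and with the values of 1 and 4, 2 and 5, and 3 and 6 averaged, the adjusted p was 0.0534 at 0.5 h. With WT replicates 4 to 6 alone as control, the difference at 0.5 h was -0.43 (adjusted p = 0.174).

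Against inhibitor alone for the same total time (40 and 70 min), LPS raised Il10 in PD0325901-treated cells by 2.27 ± 0.24 (SE) at 0.5 h and 2.61 ± 0.24 at 1 h, with adjusted p of 2.49e-13 and 2.67e-17. The shares of genes called were 0.852% and 4.35%. The response differed from WT by -0.44 ± 0.31 at 0.5 h (adjusted p = 0.706, 0.326% called) and -0.82 ± 0.31 at 1 h (adjusted p = 0.145, 0.576% called), with a 95% interval of -1.43 to -0.21 at 1 h. From 0.5 to 1 h, Il10 changed by 0.43 with PD0325901 (adjusted p = 0.0704), and these 2 groups did not overlap. That step differed from the WT step by -0.29 ± 0.28 (adjusted p = 1.00).

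With RSKi47, Il10 was lower than in WT cells at all 3 LPS times. At 0.5 h its libraries stood at 7.30, 7.36 and 7.36, more than 1 below every WT library. The difference was -1.72 ± 0.24 (SE, adjusted p = 2.88e-09), a call made by 1.29% of genes, and Il10 was the 10th lowest of 11971. At 2 h the libraries stood at 7.94, 7.77, 7.54 and 6.71, all below the lowest WT library. The difference was -1.95 ± 0.24 (adjusted p = 2.75e-11), a call made by 2.00% of genes, and Il10 was the 15th lowest. Without replicate 4, the lowest library, it was -1.69 (adjusted p = 4.87e-10).

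At 1 h the RSKi47 libraries disagreed. Replicate 1 stood at 10.56, above every WT library, and replicates 2 to 4 at 8.02, 8.06 and 7.16, below every WT library. The difference over all 4 was -1.33 ± 0.22 (SE, adjusted p = 1.86e-07), a call made by 1.55% of genes. Without replicate 1 it was -2.04 ± 0.16 (adjusted p = 2.38e-19), the 9th lowest of 11971, with 1.81% of genes called. Without replicate 4 it was -0.90 (adjusted p = 1.54e-04), which is short of a call. In a fit of these 2 groups alone, with replicate 1 kept, the adjusted p was 0.0585. Replicate 1 is also the library with the 1 value in the table that was set missing, for Fosb. In deviations from the group mean over all genes, libraries numbered 1 had r = 0.369 between 1 h and no LPS. The r was 0.124 between 1 and 0.5 h and 0.318 between 1 and 2 h. The best r with another number was 0.19, 0.101 and 0.121. Whether this library is as labelled was not tested.

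In RSKi47 replicate 1 at 1 h, Il10 was 2.51 above the highest of the other 3 libraries. This was the second-largest such excess over all genes, after Areg, which encodes the growth factor amphiregulin (2.51, from 7.14 against 4.63 at most). The next were Nr4a2 (2.34), an orphan nuclear receptor gene, Mt2 (2.28), a metallothionein gene, and Nr4a1 (2.24). These genes were named after their values were seen. At 0.5 and 2 h, Il10 in replicate 1 was at 7.30 and 7.94, and no excess of this size was present.

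The LPS response under RSKi47 was 1.26 ± 0.26 (SE) at 0.5 h, 2.38 ± 0.24 at 1 h and 1.42 ± 0.24 at 2 h, with adjusted p of 2.34e-04, 5.25e-15 and 1.62e-07. Of all genes, 0.668%, 2.80% and 7.28% were called. The cells without LPS had RSKi47 for 10 min, so these responses were not matched for the total time of inhibitor. Those with PD0325901 were. Without replicate 1, the response at 1 h was 1.67 ± 0.18 (adjusted p = 5.83e-14). The response differed from that of WT cells by -1.44 ± 0.32 at 0.5 h (adjusted p = 0.0517, 0.00835% called). It differed by -1.05 ± 0.31 at 1 h (adjusted p = 0.0225, 0.376% called) and by -1.67 ± 0.32 at 2 h (adjusted p = 3.53e-05, 1.03% called). At 0.5 h the difference missed the threshold, in a comparison with 1 called gene, and with arm and replicate number as a block it was a call (-1.69, adjusted p = 2.61e-04). Without replicate 1 at 1 h, the difference there was -1.76 (adjusted p = 4.03e-09), and without replicate 4 it was -0.67 (adjusted p = 0.250). The adjusted p was also above the threshold without RSKi47 replicate 2 (0.124) or 3 (0.138) and without WT replicate 5 (0.0546) or 6 (0.0684). With quantile normalisation the difference at 1 h was just short of the size of a call (adjusted p = 0.0304).

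In Map3k8[D270A] cells, Il10 rose to 1 h, and to that time no difference from WT cells passed the test in the fit of all libraries. At 2 h it was below every WT library of that time and above every unstimulated library of its own. The libraries ran from 8.56 to 8.96 at 0.5 h (median 8.68), from 8.74 to 9.63 at 1 h (median 9.27) and from 6.67 to 7.07 at 2 h (median 6.88), against 6.16 to 6.49 without LPS (median 6.20). Only at 2 h did they not overlap WT. The difference from WT was -0.35 ± 0.20 (SE) at 0.5 h (adjusted p = 0.475, 0.134% of genes called), -0.53 ± 0.20 at 1 h (0.0628, 0.292%) and -2.57 ± 0.22 at 2 h (4.85e-18, 0.677%), where Il10 was the 2nd lowest of 11971. The 1 h difference passed an adjusted p of 0.05 in 6 of 23 alternatives. The fit of all libraries takes the spread of Il10 from every group, RSKi47 at 1 h (SD 1.47) among them. In a fit of only the WT, Map3k8[D270A] and Elk1-/-Elk4-/- libraries the SE was 0.12 and the adjusted p 2.29e-03. It also passed without Map3k8[D270A] replicate 1 or 2 or WT replicate 9. When replicates 1 to 3 of these cells were set against replicates 4 to 6 of WT, the differences were -0.02, -0.32 and -2.51. Replicates 4 to 6 against WT replicates 7 to 9 gave -0.68, -0.74 and -2.65, the last with 1 WT library.

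The response of Map3k8[D270A] cells was 2.45, 2.99 and 0.61 at 0.5, 1 and 2 h, with an SE of 0.20 each and adjusted p of 1.34e-19, 3.99e-26 and 3.72e-03. Only the last was short of a call, at shares of 0.443%, 3.40% and 9.16% of genes called. It differed from the WT response by -0.26 at 0.5 h (adjusted p = 1.00, 0.0752% called), by -0.44 at 1 h (0.857, 0.251%) and by -2.47 ± 0.29 at 2 h (6.00e-11, 0.601%). From 1 to 2 h, Il10 fell by 2.38 in these cells (difference -2.38 ± 0.20, adjusted p = 3.02e-20), against -0.34 in WT cells (0.160). Leaving out any 1 replicate moved the 2 h difference from WT to between -2.64 and -2.49.

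**Figure D2:**
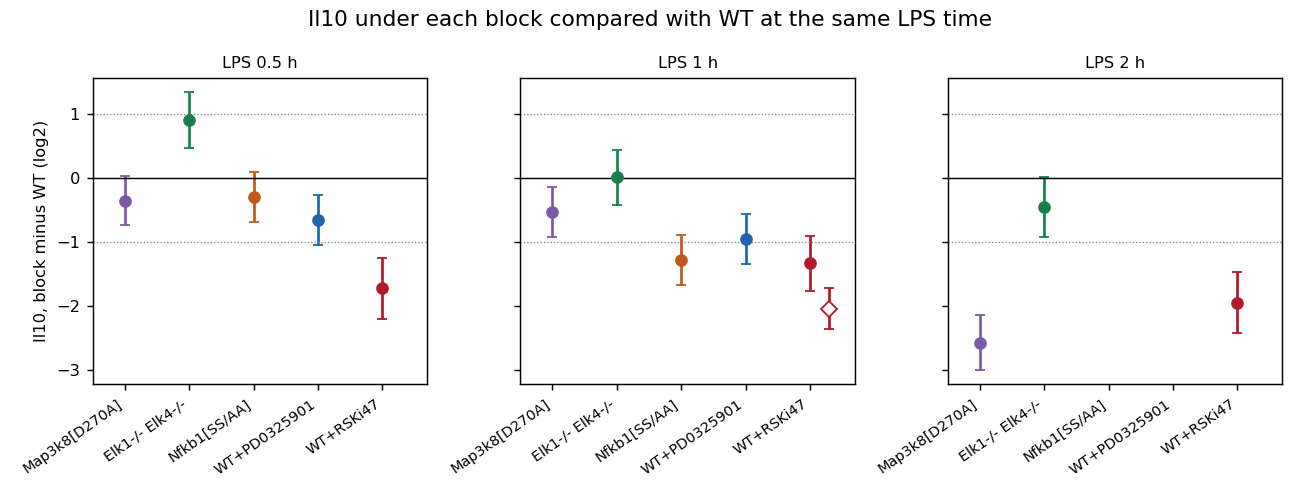
Difference of Il10 from WT cells at the same LPS time (log2) for each block, with 95% intervals from limma and dotted lines at -1 and 1; the open diamond leaves out RSKi47 replicate 1 at 1 h. Elk1-/-Elk4-/- cells lie at 0.91, 0.01 and -0.45, the other blocks below 0 at every time measured, and the largest shift is -2.57 in Map3k8[D270A] cells at 2 h.

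Set against each other at the same time, the mean Il10 level was highest in Elk1-/-Elk4-/- cells among the blocks. At 0.5 h, Il10 in Elk1-/-Elk4-/- cells exceeded that in Nfkb1[SS/AA] cells by 1.20 ± 0.22 (SE, adjusted p = 2.74e-06, 1.57% of genes called) and that with PD0325901 by 1.56 ± 0.22 (4.48e-09, 1.26%). PD0325901 in turn stood above RSKi47 by 1.06 ± 0.24 (1.14e-04, 1.32%). The groups of these 3 pairs did not overlap. Nfkb1[SS/AA] and PD0325901 differed by 0.36 (adjusted p = 0.158, 95% interval -0.03 to 0.75). Map3k8[D270A] differed from Elk1-/-Elk4-/- cells by -1.26 ± 0.22 at 0.5 h (1.06e-06) and -2.12 ± 0.22 at 2 h (3.17e-14), both calls. At 1 h the difference was -0.54 ± 0.22 (0.0294), with overlap and short of a call. In these comparisons 171, 185 and 171 of 11971 genes were called.

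At 1 h, Il10 in Elk1-/-Elk4-/- cells exceeded that in Nfkb1[SS/AA] cells by 1.29 ± 0.22 (SE, adjusted p = 2.85e-07, 1.96% of genes called). It exceeded that with PD0325901 by 0.96 ± 0.22 (1.11e-04, 1.27%), which was short of a call, and neither pair overlapped. Nfkb1[SS/AA] and PD0325901 differed by -0.33 with a 95% interval of -0.72 to 0.06 (adjusted p = 0.192, 0.284%). PD0325901 and RSKi47, which inhibit kinases at different levels of the cascade at doses of 0.1 and 2 µM, differed by 0.39 ± 0.22 (0.129, 1.48%). Without RSKi47 replicate 1 that difference was 1.09 (1.89e-08), and without replicate 4 it was -0.05. Nfkb1[SS/AA] and RSKi47 differed by 0.06 (0.844), and by 0.76 (4.71e-05) without replicate 1. At 2 h, Elk1-/-Elk4-/- cells exceeded RSKi47-treated cells by 1.50 ± 0.24 (adjusted p = 7.67e-08, 2.92%) without overlap. These comparisons used groups of different experiments. The fit adjusts p-values over genes within each comparison, and 23 such comparisons between blocks were made.

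**Figure D3:**
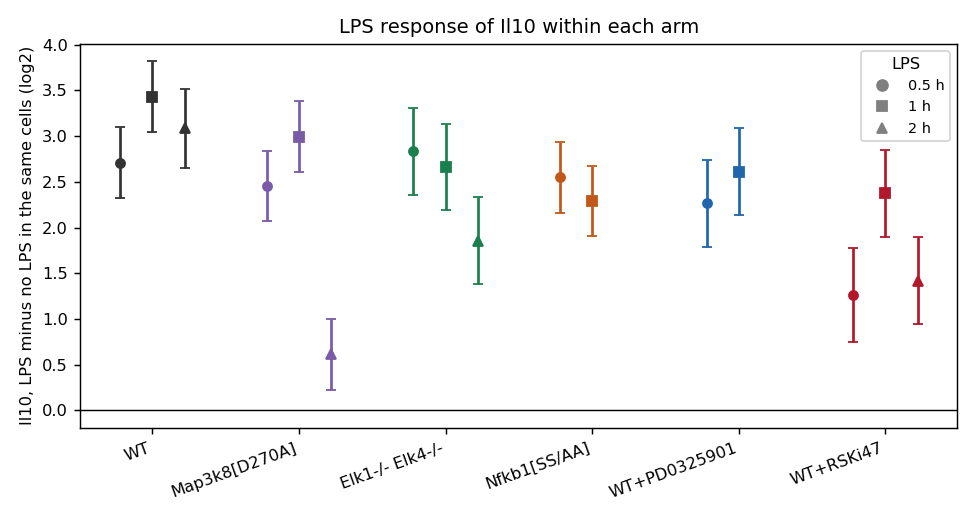
LPS response of Il10 within each arm, as the difference from the same arm without LPS (log2; for PD0325901, from inhibitor alone for the same total time), with 95% intervals from limma; circles, squares and triangles are 0.5, 1 and 2 h. All responses to 1 h lie above 1, and those at 2 h run from 3.09 in WT to 0.61 in Map3k8[D270A] cells. RSKi47 cells without LPS had 10 min of inhibitor.

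The transcription factors that act on Il10 were followed as a list of 22 genes, all tested. At 1 h, 3 were called lower in Nfkb1[SS/AA] cells and 3 with PD0325901, and these were Fos, Fosb and Fosl1 in each, the FOS-family subunits of AP-1, where 1.17% and 0.735% of all genes were called. Fos, whose product has been linked to IL-10 induction downstream of ERK, was lower by 1.62 in Nfkb1[SS/AA] cells (difference -1.62 ± 0.11, SE, adjusted p = 1.39e-24) and by 1.44 with PD0325901 (-1.44 ± 0.11, 6.13e-21). Its level at 1 h was 11.54 ± 0.27 (SD, n = 6) in WT, 9.92 ± 0.15 (n = 6) in Nfkb1[SS/AA], 10.10 ± 0.09 (n = 6) with PD0325901 and 11.29 ± 0.04 (n = 4) in Elk1-/-Elk4-/- cells. Il10 in both lay below every WT library at 1 h. In Map3k8[D270A] cells Fos was also called lower (-1.16), and Il10 differed by -0.53 (adjusted p = 0.0628) and overlapped WT. A link between Fos and Il10 was not tested. The list medians were -0.14 and -0.26, beside -0.01 over all genes in both.

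In Elk1-/-Elk4-/- cells at 1 h, 3 of the 22 were called lower, Fosb (-1.52), Fosl1 (-1.23) and Bhlhe40 (-1.09), and none higher, where 1.51% of all genes were called. Fos itself differed by -0.24 ± 0.12 (SE, adjusted p = 0.0773) and was not called. BHLHE40 is known as a repressor of Il10 in T cells. With RSKi47, Fosl1 was called lower (-1.38), where 1.55% of all genes were called. Fos differed by 0.20 (adjusted p = 0.155), or by -0.11 (0.387) without replicate 1. In Map3k8[D270A] cells 4 were called lower, Cebpb, Fos, Fosb and Fosl1, where 0.292% of all genes were called. The list medians in these 3 blocks were -0.09, 0.08 and -0.23, beside medians of all genes of 0.01, 0.00 and 0.00.

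Maf, the gene of c-MAF, an activator of Il10 transcription, was not called in any block at 1 h. It differed by -0.52 ± 0.07 (SE, adjusted p = 7.69e-10) in Nfkb1[SS/AA] cells, by -0.47 ± 0.07 (2.72e-08) with PD0325901, by -0.21 ± 0.08 (0.0196) with RSKi47 and by 0.10 ± 0.08 (0.294) in Elk1-/-Elk4-/- cells.

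At 2 h, 3 of the 22 were called lower in Elk1-/-Elk4-/- cells (Cebpb, Fosl2 and Jund) and 3 in Map3k8[D270A] cells (Cebpb, Cebpd and Fosl2). With RSKi47, Cebpb and Fosl2 were called lower and Bhlhe40 higher. Of all genes, 2.09%, 0.677% and 2.00% were called in these comparisons. Fosl2, another AP-1 subunit gene, stood at -1.44 in Elk1-/-Elk4-/-, -1.49 in Map3k8[D270A] and -1.84 in RSKi47-treated cells. The list medians were -0.14, -0.19 and -0.05, beside 0.02, 0.01 and 0.02 over all genes. These comparisons share the WT libraries.

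Of 14 kinases and RNA decay factors that act on Il10, all tested, 1 was called at 1 h, which was Zfp36 in Nfkb1[SS/AA] cells (-1.02 ± 0.08, SE, adjusted p = 4.54e-19), where 1.17% of all genes were called. It was short of a call without Nfkb1[SS/AA] replicate 3 or 5 or WT replicate 6 or 8, with quantile normalisation, and with WT replicates 7 to 9 alone (-0.96). Zfp36 encodes tristetraprolin, which binds AU-rich elements and promotes decay of cytokine mRNAs. It differed by -0.59 with PD0325901, -0.24 in Elk1-/-Elk4-/- cells and 0.33 with RSKi47. Dusp1, the gene of a phosphatase of p38 and JNK, differed by -0.57 with PD0325901, -0.49 in Elk1-/-Elk4-/- cells, -0.23 in Nfkb1[SS/AA] cells and -0.18 with RSKi47 at 1 h. Dusp1 was the only list member called at 2 h, with RSKi47 (-1.32 ± 0.10, adjusted p = 7.34e-20), where 2.00% of all genes were called. The list medians at 1 h lay between -0.11 and 0.03 over the 5 blocks, and those of all genes between -0.01 and 0.01.

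None of the 6 genes of the IL-10 receptor and its signalling was called in any of the 13 comparisons with WT under LPS, where 0.134% to 2.09% of all genes were called, so this count does not set them apart from other genes. Il10ra, the ligand-binding receptor chain, differed at 1 h by -0.44 ± 0.06 (SE, adjusted p = 1.35e-08) in Nfkb1[SS/AA] cells, -0.30 ± 0.06 (8.31e-05) with PD0325901, -0.35 ± 0.07 (1.89e-05) with RSKi47 and 0.03 ± 0.07 (0.751) in Elk1-/-Elk4-/- cells. Stat3, the transcription factor gene of the pathway, differed by -0.18 to 0.16 over these 4 blocks. Of the 4 other ligands of the IL-10 family on the list, 3 were in the table, and none passed the filter on low values.

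Of 9 IL-10-responsive genes, all tested, 1 was called at 1 h, Socs3 in Nfkb1[SS/AA] cells (-1.04 ± 0.09, SE, adjusted p = 4.95e-17), where 1.17% of all genes were called. It was short of a call without Nfkb1[SS/AA] replicate 3 (-0.99) and with WT replicates 7 to 9 alone (-0.89). Socs3 encodes a feedback inhibitor of cytokine signalling and differed by -0.35 with PD0325901, -0.28 in Elk1-/-Elk4-/- cells and -0.18 with RSKi47 (adjusted p = 0.133). At 2 h with RSKi47, 5 were called lower, Il4ra (-1.68), Sbno2 (-1.38), Ddit4 (-1.36), Bcl3 (-1.22) and Nfil3 (-1.09), where 2.00% of all genes were called, and the list median was -1.09 beside 0.02 over all genes. Il4ra encodes a chain of the IL-4 receptor, Bcl3 an atypical IκB protein, and Nfil3 a transcription factor. In Map3k8[D270A] cells Il4ra was called lower (-1.10) at a list median of -0.76, and in Elk1-/-Elk4-/- cells Ddit4 (-1.18) at a median of -0.31, at shares of 0.677% and 2.09% of all genes. LPS and other cytokines also act on these genes.

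Egr1, an immediate early gene and a target of the ternary complex factors, was used to check the blocks other than RSKi47. RSK inhibition was not checked. At 1 h Egr1 differed by -4.04 in Elk1-/-Elk4-/- cells, -3.06 in Nfkb1[SS/AA] cells, -4.22 with PD0325901 and -3.24 in Map3k8[D270A] cells, all called. With RSKi47 it differed by 1.01, also called. Of all genes, 1.51%, 1.17%, 0.735%, 0.292% and 1.55% were called in these comparisons. The RSKi47 value was short of a call in 9 of 19 alternatives, among them those without RSKi47 replicate 1 (0.91) or 3 and without WT replicate 4, 7 or 9. Over the same comparisons, Il10 was at 0.01 in Elk1-/-Elk4-/- cells and at -1.33 with RSKi47. Ifnb1, the gene of IFN-β, was called higher at 1 h in all 5 blocks. Its differences were 3.62 with PD0325901, 3.26 in Nfkb1[SS/AA] cells, 1.73 in Elk1-/-Elk4-/- cells, 1.33 with RSKi47 and 1.25 in Map3k8[D270A] cells.

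**Figure D4:**
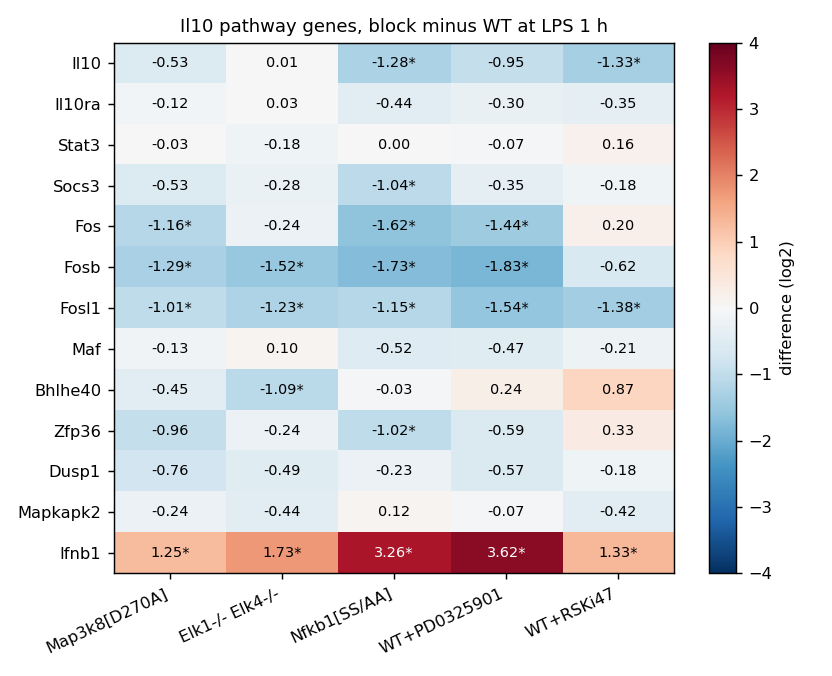
Difference from WT cells at 1 h of LPS (log2) for 13 genes of the Il10 pathway in each block, with the value in each cell, an asterisk for a call and all 4 RSKi47 libraries included. Il10 and Fos are at -1.28 and -1.62 in Nfkb1[SS/AA], -0.95 and -1.44 with PD0325901, and -0.53 and -1.16 in Map3k8[D270A] cells. They are at -1.33 and 0.20 with RSKi47 and at 0.01 and -0.24 in Elk1-/-Elk4-/- cells.

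Il10 lies in a cluster of cytokine genes on chromosome 1, beside Mapkapk2, which encodes the p38-activated kinase MK2. Of 18 annotated genes within 250 kb, 10 were in the table and 5 were tested (Mapkapk2, Dyrk3, Eif2d, Rassf5 and Ikbke). The IL-10 family genes Il19, Il20 and Il24, and Pigr and Fcmr, did not pass the filter on low values. None of the 5 tested was called at 1 h in any block, where 0.292% to 1.55% of all genes were called, so this count does not set them apart from other genes. Mapkapk2, whose start is 33.9 kb from that of Il10, differed by -0.44 ± 0.06 (SE, adjusted p = 2.76e-10) in Elk1-/-Elk4-/- cells, -0.42 ± 0.06 (7.35e-10) with RSKi47, 0.12 ± 0.05 (0.0430) in Nfkb1[SS/AA] cells and -0.07 ± 0.05 (0.267) with PD0325901. Ikbke, which encodes IKKε, had the largest of the remaining differences (-0.56 with RSKi47).

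The genes whose pattern over the 25 group means was most like that of Il10 were Cxcl1 (Pearson r = 0.911), Tnfsf9 (0.890), Tnfaip3 (0.879), H3f3b (0.871), Il1b (0.866), Klf6 (0.866), Nfkbia (0.866) and Strn3 (0.866). The median r over all genes was -0.0162. Over the 21 group means without RSKi47, Cxcl1 was at 0.938. Points share libraries within an arm and the LPS time course. Cxcl1 encodes a neutrophil chemokine, Tnfsf9 the 4-1BB ligand, Tnfaip3 the ubiquitin-editing enzyme A20 and Il1b interleukin-1β. At 1 h, Cxcl1 differed from WT by 0.20 in Elk1-/-Elk4-/- cells, -0.86 in Nfkb1[SS/AA] cells, -0.58 with PD0325901 and -0.80 with RSKi47. Il1b differed by -0.44, -1.23, -1.03 and -1.18 in the same order. Among the transcription factor genes of the list, the highest r with Il10 were those of Junb (0.840), Fosl2 (0.795), Prdm1 (0.745) and Cebpb (0.733), while Fos was at 0.372 and Maf at -0.0341. Il10ra was at 0.860 and Dusp1 at 0.851.

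**Figure D5:**
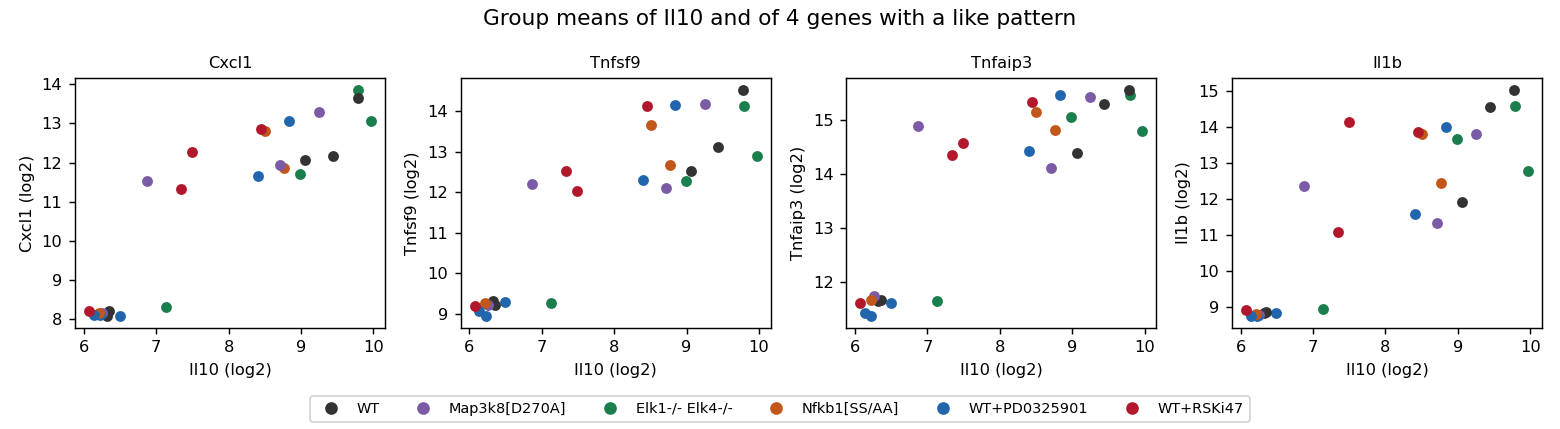
Group mean of Cxcl1, Tnfsf9, Tnfaip3 and Il1b (log2) against that of Il10 (log2) in 25 groups, 1 panel per gene, coloured by arm with DMSO in the colour of WT. The values of r are 0.911, 0.890, 0.879 and 0.866, and the RSKi47 groups are included.

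Within groups, the deviations of single libraries from their group mean gave another set of genes. Over all libraries of the table, the highest r with Il10 was that of Nr4a1 (0.775), an orphan nuclear receptor gene, followed by Cd14 (0.718), the LPS co-receptor gene, Il1r2 (0.711), Areg (0.689), Itprip (0.687), Osm (0.642), Odc1 (0.629) and Nrros (0.619). Without RSKi47 replicate 1 at 1 h the order changed. The highest r was then that of 5430427O19Rik (0.698), Gm6377 (0.655) and Ctsc (0.648), the gene of cathepsin C, with Cd14 at 0.596, Nr4a1 at 0.542 and Areg at 0.292.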

How the data were processed

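BMDMs were sequenced by RNA-seq in 119 libraries. According to the methods, single-end, strand-specific reads were aligned with STAR and estimated per RefSeq gene with RSEM on mm10. The submitters' processing notes list STAR 2.5.1b, RSEM 1.2.29 and DESeq2 1.10.1. The authors deposited 1 table of log2-scale normalised values for 18098 genes. The sources used here do not give the step that made this scale, and a difference may not equal a log2 fold change of counts. With no counts, the depth of the libraries is unknown, and precision rests on the replicate spread. Values ran from -2.40 to 19.81, and 1 value of 57.73 (Fosb, RSKi47 replicate 1, 1 h), above a limit of 25, was set missing. The table held 0 columns of other samples.

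Groups came from the labels. Genes that reached 10 on the linear scale in 3 libraries (11971) entered 1 limma fit (3.58.1, R 4.3.3) over all libraries, with 1 mean per group, no trend and no block (PD0325901 responses were taken against inhibitor alone for the same total time), after a test on simulated data. Figures used matplotlib 3.10.9 in Python 3.11.15. Ranks count the signed differences from the lowest. Positions are from GRCm38.p6.

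Within an arm, libraries with the same replicate number deviated together (r over 0.1) in all 30 pairs of WT groups (r from 0.164 to 0.79) and all 18 of Nfkb1[SS/AA] groups (0.145 to 0.672), and in 34 of 36 pairs of Map3k8[D270A], 20 of 21 of RSKi47, 20 of 24 of Elk1-/-Elk4-/- and 14 of 33 of PD0325901 groups. Between WT and the blocks, r was over 0.1 in 3 of 6 pairs with PD0325901, 1 of 9 with Nfkb1[SS/AA] and none with the others, so numbers were not taken to pair WT with any block. In the 12 pairs with Map3k8[D270A], same-number r ran from -0.449 to -0.0574, and the best r with another number from 0.199 to 0.505. Whether WT and Map3k8[D270A] replicates match under other numbers was not tested.

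Named genes are Il10, up to 6 members per list that were called in Elk1-/-Elk4-/-, Nfkb1[SS/AA], PD0325901 or RSKi47 cells at 1 h, Fos, Maf, Dusp1, Zfp36, Il10ra, Stat3, Socs3, Ifnb1, Elk1, Elk4 and Egr1, the 8 genes most like Il10 by either measure, and neighbours within 250 kb. Genes called at 2 h only, the markers, and the genes most like Il10 without RSKi47 replicate 1 were named after their values were seen. The gene and the lists were chosen with earlier results of these data known. Alternatives covered thresholds, filters, normalisation, the libraries fitted, the control replicates, the replicate block and each library left out. No promoter or protein sequence of Il10 was used here. The results of 1 member of the transcription factor list and 1 of the B cell markers are not reported here.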

Additional observations from a re-analysis of the deposited data

Results flagged for a closer look

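For 5 results, the Il10 response to LPS within a block differed from that within WT cells by a test of the difference itself. At 1 h it was smaller in Nfkb1[SS/AA] cells (difference -1.14 on the log2 scale, adjusted p = 2.81e-03, limma) and with RSKi47 (-1.05, adjusted p = 0.0225). At 2 h it was smaller in Map3k8[D270A] cells (-2.47, adjusted p = 6.00e-11), in Elk1-/-Elk4-/- cells (-1.23, adjusted p = 3.21e-03) and with RSKi47 (-1.67, adjusted p = 3.53e-05). RSKi47 responses were taken against cells with 10 min of inhibitor and were not matched for its total time. The RSKi47 value at 1 h holds replicate 1, whose Il10 level of 10.56 lay 2.51 above the highest of the other 3 libraries. Without replicate 1 at 1 h it was -1.76, and without replicate 4 it was -0.67 and not past the threshold. In a check for a single library far from its group, none of the 20 groups of 4 or 6 libraries passed Dixon's 95% critical value for Il10.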

How the results depend on the processing

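The depth is unknown, the scale is as deposited, and the groups hold 3 to 6 libraries. Of the 13 comparisons of a block with WT under LPS, 8 kept their direction and side of p under every alternative, as did all 16 responses within an arm and all 22 results for other named genes. Of the latter, 7 were short of the size of a call in at least 1 alternative. They were Egr1 with RSKi47, Zfp36 and Socs3 in Nfkb1[SS/AA] cells, Bhlhe40 in Elk1-/-Elk4-/- cells (-0.95 with WT replicates 7 to 9 alone), and Fosl1 in Elk1-/-Elk4-/- and Nfkb1[SS/AA] cells and with RSKi47 (-0.84, -0.75 and -0.98 with WT replicates 4 to 6 alone). The cause of the changes below was not tested.

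Fitting only the groups compared, with their own spread, gave an adjusted p of 0.0585 for RSKi47 against WT at 1 h (-1.33), 0.0119 for Elk1-/-Elk4-/- at 2 h (-0.45), 0.0458 for RSKi47 without LPS (-0.28), and 0.0226 and 0.0447 for PD0325901 at 40 and 70 min against 10 min (-0.36 and -0.27). For the differences in response it gave 0.0154 for RSKi47 at 0.5 h (-1.44), 0.391 at 1 h (-1.05), 0.0371 for Elk1-/-Elk4-/- (-0.77) and 5.39e-03 for PD0325901 (-0.82) at 1 h. Between blocks it gave 4.35e-03 for Map3k8[D270A] against PD0325901 at 0.5 h (0.31) and 0.0318 at 1 h (0.41), 0.0152 for Nfkb1[SS/AA] against PD0325901 at 0.5 h (0.36), and for RSKi47 at 1 h 0.241 against Map3k8[D270A] (0.80) and 0.0961 against Elk1-/-Elk4-/- cells (1.34). Only the WT, Map3k8[D270A] and Elk1-/-Elk4-/- libraries gave 2.29e-03 for Map3k8[D270A] at 1 h (-0.53), 0.0117 for Elk1-/-Elk4-/- at 2 h (-0.45) and 0.0254 for the response of Elk1-/-Elk4-/- cells at 1 h (-0.77).

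With WT replicates 4 to 6 alone, PD0325901 at 0.5 h was at -0.43, Map3k8[D270A] at 1 h at -0.65 (adjusted p = 0.0434), Elk1-/-Elk4-/- at 1 h at -0.11, DMSO at 0.0249 and the Nfkb1[SS/AA] response difference at 0.5 h at 0.0139. With WT replicates 7 to 9 alone, the response differences were -0.0505 for Elk1-/-Elk4-/- at 0.5 h, -1.62 (0.0257) for RSKi47 at 0.5 h, -0.96 for Nfkb1[SS/AA] at 1 h, -0.88 (0.404) for RSKi47 at 1 h and -1.20 for Elk1-/-Elk4-/- at 2 h, and the step from 0.5 to 1 h differed from WT by 0.17 in Map3k8[D270A] and 0.0609 in PD0325901 cells. With PD0325901 replicates averaged in pairs, the 0.5 h difference was -0.66 (0.0534). No filter gave -1.44 (0.0472) and quantile normalisation -1.43 (0.0376) for the RSKi47 response at 0.5 h.

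The replicate block took 2 forms. By replicate number, which did not pair WT with the blocks, the block gave -0.62 (0.0119) for Map3k8[D270A] and -0.12 for Elk1-/-Elk4-/- at 1 h, -0.58 (0.0282) for Elk1-/-Elk4-/- at 2 h, -0.0695 for PD0325901 at 10 min against WT and -1.03 for PD0325901 at 1 h (1.02e-05, which is then a call), and it moved the genes called for PD0325901 at 0.5 h from 49 to 84. By arm and replicate number, the block gave -1.69 (2.61e-04) for the RSKi47 response at 0.5 h and, from 0.5 to 1 h, 0.43 (0.0273) with PD0325901 and -0.89 (0.0314) for Elk1-/-Elk4-/- against WT cells. Neither changed another call of Il10 in a comparison with WT or in a response.

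With 1 replicate left out, values ran from -0.61 to -0.43 for Map3k8[D270A] against WT at 1 h, -0.0533 to 0.0915 for Elk1-/-Elk4-/- at 1 h, -0.0843 to 0.0435 for DMSO, and -1.49 to -1.39 and -1.76 to -0.67 for the RSKi47 response differences at 0.5 and 1 h. RSKi47 against WT at 1 h ran from -2.04 to -0.90, and PD0325901 against WT at 1 h from -1.01 to -0.87. Map3k8[D270A] ran from -0.13 to 0.00688 against Nfkb1[SS/AA] at 0.5 h, from -0.62 to -0.44 against Elk1-/-Elk4-/- and from 0.338 to 0.52 against PD0325901 at 1 h, and from 0.37 to 1.51 at 1 h and -0.88 to -0.47 at 2 h against RSKi47. RSKi47 ran from -0.37 to 0.76 below Nfkb1[SS/AA] and from -0.0452 to 1.09 below PD0325901 at 1 h, and its step from 0.5 to 1 h differed from that of WT by -0.33 to 0.82. Without its replicate 1 at 1 h alone, these were 0.76, 1.09 and -0.315, and its step from 1 to 2 h differed from that of WT by 0.0906.

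A threshold of 0.693 (the natural logarithm of 2) also called Il10 in Elk1-/-Elk4-/- cells at 0.5 h and without LPS and with PD0325901 at 1 h, and raised the genes called, for example from 88 to 228 for PD0325901 and from 140 to 328 for Nfkb1[SS/AA] at 1 h. The adjusted p alone raised them to 4268 and 5083.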
